A study of Mus musculus with 16 samples.

Results

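The fibroblast growth factor (FGF) signalling genes were followed in 2 mouse tissues, ascending aorta and aortic valve, with 2 or 1 copies of the elastin gene. The set was taken by gene name: the numbered FGF ligands, the receptors Fgfr1 to Fgfr4 and Fgfrl1, the Sprouty and Spred inhibitors, the phosphatase Dusp6 and the transcription factors Etv1, Etv4 and Etv5. It holds 84 probe sets of 37 genes, out of 45037 probe sets and 18193 genes on the array. Etv1 was listed too, but its 3 probe sets each name 2 genes, so it has no member here and 37 of 38 listed genes were measured. Of the 37 genes, 14 have 1 probe set, and Spred1 has the most, 8.

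The study used 16 Affymetrix mouse arrays in 4 groups of 4: aorta Eln+/+, aorta Eln+/-, aortic valve Eln+/+ and aortic valve Eln+/-. All mice were 30 days old and untreated, and Eln+/- mice carry 1 working copy of the elastin gene in every cell. A valve specimen held cusp, annulus and root together. Each specimen was amplified and hybridised without pooling, and it is not stated if equal numbers in aorta and valve mark 1 mouse. In Eln+/+ numbers 2 and 4 do not, by the sex-linked transcripts given below.

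FGFs are secreted proteins that bind tyrosine kinase receptors together with heparan sulfate and switch on the RAS and ERK kinases. That signal induces its own brakes, the Sprouty and Spred proteins and Dusp6, and the ETS factors Etv4 and Etv5, so these transcripts are widely used as readouts of receptor activity. In the embryo, FGF signals from the heart fields and the neighbouring tissue shape the outflow tract, from which the aortic valve and the root of the ascending aorta arise.

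Each value below is the log2 of a deposited ratio, in which 0 is mostly the probe set's own median over the 16 arrays, so values of different genes cannot be ranked by level. In 5 of the 84 probe sets that median ratio lies below 1, against 11.7% of all probe sets. These are Fgf4 1420085_at (0.70), Fgf23 1422176_at (0.68), Fgf12 1436432_at (0.58), Fgfr4 1427776_a_at (0.82) and Spry3 1438073_at (0.69). In them 0 lies above the probe set's own median. Differences were tested with limma over all 45037 probe sets with Benjamini-Hochberg adjustment, and "passed" means an adjusted p under 0.05. In these bulk specimens fewer cells of a type and less RNA per cell cannot be told apart. The p-values measure only the spread between these specimens, and 4 arrays a group limit the precision.

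The specimens differed in make-up as well as in tissue. All 20 heart muscle markers were higher in the valve specimens, with a mean list level of 0.48 to 2.10 over the valve arrays and -3.43 to -0.73 over the aorta arrays. The 2 highest aorta arrays on that list were Eln+/+ 2 and Eln+/- 3. Smooth muscle markers were lower in the valve in 11 of 12 genes, and valve and cartilage-type markers were higher in 10 of 12. Within the valve, Eln+/- specimens had the heart muscle list higher in 20 of 20 genes, at a median difference of 0.80, and the smooth muscle list lower in 11 of 12. Aorta Eln+/- 2 and 4 carried thymocyte transcripts. Xist was low and Y-linked transcripts high in 6 of 8 Eln+/+ arrays and 0 of 8 Eln+/- arrays, and the part of sex in the genotype comparisons cannot be fully told apart from that of the Eln allele. Xist read -6.18 in aorta Eln+/+ 2 and 0.14 in valve Eln+/+ 2. It read 0.13 in aorta Eln+/+ 4 and -6.56 in valve Eln+/+ 4, so these equal numbers do not mark 1 mouse. Eln itself (1420854_at) gave an Eln+/- minus Eln+/+ difference of -0.42 ± 0.34 (SE) in aorta and -1.27 ± 0.34 (SE) in valve and passed in neither.

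FGF genes passed between the tissues and not between the genotypes. With both genotypes averaged, 13 of the 84 probe sets, from 10 genes, passed between valve and aorta, or 15.5% against 8.04% of all probe sets. Of these, 11 were higher in the valve, against 4.4% of all probe sets, and 2 were lower, against 3.64%. In Eln+/- mice alone 7 of 84 passed, all higher in the valve, against 5.81% of all probe sets (3.27% higher and 2.54% lower). In Eln+/+ mice 0 of 84 passed, against 0.946% of all (0.848% higher and 0.0977% lower), while 16 had an unadjusted p under 0.05, against 11.8% of all. The difference between those tissue effects was itself tested, and no FGF probe set passed, so the counts do not show that the genotypes differ.

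The genes higher in the valve were Fgf18 and Fgf1 among the ligands, Fgf12 and Fgf14 among the intracellular FGF homologous factors, the inhibitors Spry2, Spry4 and Spred1, and the transcription factor Etv5. Those lower in the valve were Fgf11, another homologous factor, and Fgfrl1, the receptor without a kinase. In Eln+/+ all valve arrays lay above all aorta arrays in 12 probe sets and below them in 4, against 7.68% of all probe sets (3.59% above and 4.09% below). In Eln+/- the counts were 11 and 1, against 11% (5.62% and 5.42%). Over both genotypes together they were 2 and 0, against 1.58% (1.2% and 0.38%). The median tissue difference was 0.074 over the 84 probe sets and -0.038 over all probe sets. The 2 genotype-specific tissue differences, which share no arrays, had the same sign in 50 of 84 probe sets, against 59.1% of all. With the 2 aorta arrays that carry heart muscle transcripts left out, an alternative added after seeing the data, 7 of the 13 passed, 6 higher and 1 lower. On the whole array 1538 probe sets then passed as higher and 1041 as lower, against 1981 and 1639 with all arrays. Leaving out a single array gave 7 to 13 in all, newly passed probe sets included, and kept 7 to 11 of the first 13. The total was 7 without aorta Eln+/- 3 or valve Eln+/+ 4 and 8 without aorta Eln+/+ 1 or valve Eln+/- 1. In Eln+/- alone leaving out 1 array gave 2 to 6 in all, with 2 without aorta Eln+/- 1, valve Eln+/- 1 or valve Eln+/- 2, 3 without aorta Eln+/- 4 or valve Eln+/- 3, and 4 without aorta Eln+/- 3. Without both aorta Eln+/- arrays that carry thymocyte transcripts, 1 probe set passed in Eln+/-, 1 in Eln+/+ and 12 on average, 9 of these 12 among the first 13.

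**Figure D1:**
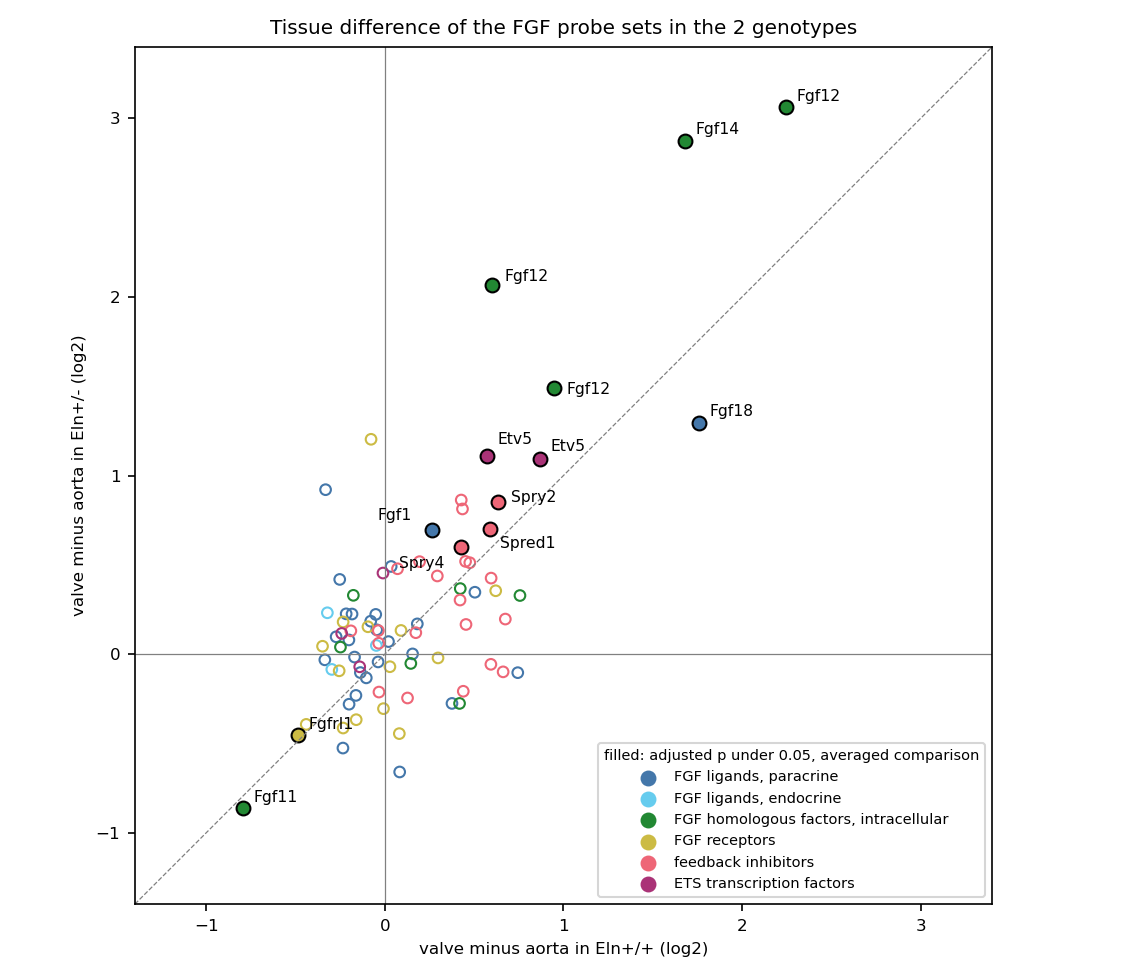
Valve minus aorta in Eln+/+ (x axis, log2) against the same difference in Eln+/- (y axis, log2) for the 84 FGF probe sets, coloured by role, with the 13 that passed in the averaged comparison filled and named and equal differences on the dashed line. Most points lie within 1 unit of 0, while the filled Fgf12, Fgf14 and Fgf18 points reach 1.49 to 3.06 in the genotype where each is higher.

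Promoters are shown for the ligand Fgf18, the receptor Fgfrl1 and the downstream genes Spry2, Spred1 and Etv5, so that the start regions of genes that passed between tissues can be read side by side. In the RefSeq promoter table of build GRCm38.p6, 27 of the 37 member genes had an entry, with 35 windows in all. Each line gives the 250 bases before the transcription start on the gene's own strand, 5′ to 3′, at chr11:33147401-33147650 (minus strand) for Fgf18, chr5:108693979-108694228 (plus) for Fgfrl1, chr14:105896820-105897069 (minus) for Spry2, chr2:117120821-117121070 (plus) for Spred1 and chr16:22439571-22439820 (minus) for Etv5, 1 of its 2 windows. Capitals mark matches to the ETS core CCGGAAG or the GC box GGGCGG on either strand.
Fgf18: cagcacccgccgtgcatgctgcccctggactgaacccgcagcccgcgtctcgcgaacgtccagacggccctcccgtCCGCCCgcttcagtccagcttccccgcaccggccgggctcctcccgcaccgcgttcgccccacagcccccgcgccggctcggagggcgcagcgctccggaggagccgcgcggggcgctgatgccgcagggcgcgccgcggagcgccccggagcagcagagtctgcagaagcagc
Fgfrl1: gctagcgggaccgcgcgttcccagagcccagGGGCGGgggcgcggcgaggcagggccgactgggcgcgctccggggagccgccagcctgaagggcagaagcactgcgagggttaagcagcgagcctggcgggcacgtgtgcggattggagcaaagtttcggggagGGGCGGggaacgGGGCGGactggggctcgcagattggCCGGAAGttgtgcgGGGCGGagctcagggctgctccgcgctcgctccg
Spry2: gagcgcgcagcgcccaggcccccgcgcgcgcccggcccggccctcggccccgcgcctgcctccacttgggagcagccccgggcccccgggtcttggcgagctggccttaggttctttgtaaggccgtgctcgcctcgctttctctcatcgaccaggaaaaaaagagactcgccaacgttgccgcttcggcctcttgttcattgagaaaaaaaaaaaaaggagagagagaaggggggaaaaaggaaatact
Spred1: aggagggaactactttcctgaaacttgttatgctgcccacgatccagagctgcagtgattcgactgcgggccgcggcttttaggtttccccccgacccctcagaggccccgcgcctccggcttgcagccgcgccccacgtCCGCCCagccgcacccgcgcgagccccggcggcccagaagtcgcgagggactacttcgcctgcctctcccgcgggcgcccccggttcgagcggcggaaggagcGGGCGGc
Etv5: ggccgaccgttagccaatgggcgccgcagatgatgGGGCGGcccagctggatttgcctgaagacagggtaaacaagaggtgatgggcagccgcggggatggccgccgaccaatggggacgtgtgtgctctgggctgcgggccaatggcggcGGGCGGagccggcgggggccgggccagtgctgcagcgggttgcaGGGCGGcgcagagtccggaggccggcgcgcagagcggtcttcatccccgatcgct
The ETS core was found in 1 of the 35 member windows, that of Fgfrl1, 48 bases before the start, or 2.86% against 6.91% of 32851 windows of that length in the table. The GC box was found in 23 of the 35, or 65.7% against 32.7%. Fgfrl1 holds 4 GC boxes, Etv5 3, Spred1 2 and Fgf18 1, and the Spry2 window holds neither motif. A match is only a match of letters, and its absence says nothing of a factor's binding outside these windows.

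Among the 15 paracrine ligands, which act on neighbouring cells, 2 of 27 probe sets passed for the averaged tissue difference, or 7.41% against 8.04% of all probe sets. The one with the widest difference was Fgf18, a ligand known from cartilage and bone growth. Its log2 ratios were -0.82, -0.77, -1.30 and -1.33 in aorta Eln+/+ and -0.60, 0.18, -0.68 and -2.97 in aorta Eln+/-. In the valve they were 0.81, 0.82, 0.0084 and 1.18 in Eln+/+ and 0.54, 0.12, 0.46 and -0.0085 in Eln+/-. All 4 valve arrays of Eln+/+ lay above all 4 aorta arrays of that genotype, while in Eln+/- aorta array 2 reached into the range of the valve and aorta array 4 was far below the rest. The averaged difference was 1.53 ± 0.33 (SE; limma adjusted p = 0.00972), a 2.88-fold higher level in the valve.

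The Fgf18 call stood in all 16 fits that left out 1 array, with differences from 1.20 to 1.73, and over all its alternatives the adjusted p in limma ran from 0.00087 to 0.0245. In Eln+/+ alone the difference was 1.76 ± 0.47 (SE) with an adjusted p of 0.109, and it passed when aorta Eln+/- 4 was left out of the shared spread, at an adjusted p of 0.00455. Beside it, the valve and cartilage-type markers ran from -1.30 to -0.53 over the aorta arrays and from 0.092 to 1.82 over the valve arrays. Their part in the Fgf18 difference was not tested.

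Fgf1, a ligand that can bind every FGF receptor and leaves cells without a signal peptide, passed with 1 of its 3 probe sets. For 1450869_at the aorta values were -0.36, -0.38, -0.09 and -0.36 in Eln+/+ and 0.085, -0.41, -0.17 and 0.27 in Eln+/-. The valve values were 0.43, -0.13, -0.54 and 0.11 in Eln+/+ and 0.72, 0.56, 0.79 and 0.48 in Eln+/-. In Eln+/- every valve array lay above every aorta array, whereas in Eln+/+ the tissues overlapped. The difference was 0.69 ± 0.19 (SE; limma adjusted p = 0.0433) in Eln+/- and 0.48 ± 0.14 (SE; limma adjusted p = 0.0388) on average. The other 2 probe sets also had positive averaged differences, 0.43 ± 0.18 (SE) and 0.29 ± 0.26 (SE), and did not pass. The call in Eln+/- was lost in 12 of the 16 fits without 1 array and kept in 2 of 11 other alternatives. The averaged call was lost in 11 of those 16 fits, and with 1 probe set per gene, the one with the highest SD (1441042_at), it was 0.29 at an adjusted p of 0.584.

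The rest of the paracrine ligands showed little. Of the 27 probe sets, 13 spanned less than 1 log2 unit over all 16 arrays, or 48.1% against 39.5% of all probe sets, and the median tissue difference was 0.045. Fgf8, known for its part in outflow tract development and named here with Fgf10, Fgf2 and Fgf9 after their values were seen, stayed between -0.21 and 0.24 over the 16 arrays. Fgf10, a mesenchymal ligand of the heart field, ranged from -0.70 to 0.63, with a tissue difference of 0.02 ± 0.17 (SE). Fgf2, basic FGF, had -0.29 ± 0.20 (SE), and the 2 probe sets of Fgf9 had 0.045 ± 0.12 (SE) and 0.26 ± 0.25 (SE). None of these passed.

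The 3 endocrine ligands, which travel in blood, did not pass in any comparison. They are Fgf15 of the intestine, Fgf21 of the liver and Fgf23 of bone, and each probe set spanned less than 1 log2 unit over the arrays. Their averaged tissue differences were 0.00023 ± 0.13 (SE), -0.045 ± 0.083 (SE) and -0.19 ± 0.10 (SE).

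The FGF homologous factors Fgf11 to Fgf14 are not secreted. They stay inside neurons and heart muscle cells, where they bind voltage-gated sodium channels, and they do not activate FGF receptors. Of their 11 probe sets, 5 passed for the averaged tissue difference, 4 higher and 1 lower, or 45.5% against 8.04% of all probe sets, and the median difference was 0.39.

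Fgf12 held 3 of the 4 that were higher. For 1451693_a_at the aorta values were -1.87, -0.73, -1.45 and -1.57 in Eln+/+ and -1.39, 0.052, -1.27 and -1.42 in Eln+/-. In the valve they were 0.0084, 0.66, 0.97 and 1.73 in Eln+/+ and 3.05, 1.77, 3.42 and -0.0084 in Eln+/-. Within a genotype the one overlap was valve Eln+/- 4, which lay just below aorta Eln+/- 2. The averaged difference was 2.66 ± 0.42 (SE; limma adjusted p = 0.00103), or 6.3-fold, and it was 3.06 ± 0.60 (SE; limma adjusted p = 0.00704) in Eln+/-. In Eln+/+, where the tissues did not overlap, it was 2.25 ± 0.60 (SE) with an adjusted p of 0.105. There it passed without valve Eln+/- 4 in the shared spread, at an adjusted p of 0.0241. This probe set passed in all 16 fits without 1 array in both the averaged and the Eln+/- comparison.

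The other 2 Fgf12 probe sets gave averaged differences of 1.33 ± 0.36 (SE; limma adjusted p = 0.0332) for 1440270_at and 1.22 ± 0.33 (SE; limma adjusted p = 0.0324) for 1436432_at. Both sat in a narrow band in aorta, from -0.34 to 0.10 and from -1.15 to -0.78. In the valve they spread from -0.41 to 2.97 and from -1.17 to 1.39, so over both genotypes some valve arrays were no higher than aorta, while in Eln+/- every valve array lay above every aorta array in both probe sets. Their calls were lost in 11 and 10 of the 16 fits without 1 array. For 1436432_at 0 lies above its own median, a ratio of 0.58.

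Fgf14 passed with 1 of 4 probe sets. For 1458830_at the aorta values were -1.66, -1.31, -1.88 and 1.67 in Eln+/+ and -2.22, -0.30, -0.057 and -1.46 in Eln+/-. The valve values were 0.87, -0.65, 1.16 and 2.18 in Eln+/+ and 2.06, 2.63, 2.73 and 0.055 in Eln+/-. Aorta Eln+/+ 4 was above 3 of the 4 valve arrays of its genotype, and valve Eln+/+ 2 and Eln+/- 4 were lowest of the valve. The averaged difference was 2.28 ± 0.57 (SE; limma adjusted p = 0.0212), and it passed in all 16 fits without 1 array. The other 3 Fgf14 probe sets differed between tissues by 0.071 ± 0.17 (SE), 0.046 ± 0.12 (SE) and 0.39 ± 0.17 (SE) and did not pass.

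Genes of atrial heart muscle were set beside Fgf12 and Fgf14 over the valve specimens, after the values of Fgf12 and Fgf14 were seen. The atrial light chain Myl7 read 1.75, 1.01, 1.78 and 2.99 in valve Eln+/+ 1 to 4 and 3.27, 2.99, 3.45 and 0.82 in valve Eln+/- 1 to 4. Fgf12 and Fgf14 were likewise high in Eln+/+ 4 and Eln+/- 1, 2 and 3 and read -0.0084 and 0.055 in Eln+/- 4. Other arrays went differently. Valve Eln+/+ 1, with more Myl7 than Eln+/+ 2, read less Fgf12, 0.0084 against 0.66, though more Fgf14, 0.87 against -0.65. In aorta Eln+/+ 4 Fgf14 read 1.67 with Myl7 at -3.96. Aorta Eln+/- 2 had Fgf12 at 0.052 with Myl7 at -3.34, and aorta Eln+/- 3 had Fgf12 at -1.27 with Myl7 at -2.09. In that last array Myh6, a myosin of both mouse atrium and ventricle, read 1.52, as high as in the arrays rich in Fgf12, and ventricular Myl2 read 1.04. The atrial and pacemaker factor Shox2 read -0.028, 0.077, 0.25 and 2.90 in valve Eln+/+ and 3.21, 0.48, 2.83 and 0.62 in valve Eln+/-. The 9 measured Schwann cell and neuron markers, taken because neurons express these factors too, had a list level of -0.38 to -0.13 over the aorta and -0.019 to 0.47 over the valve arrays. With genotypes averaged, 6 of these 9 genes were higher in the valve and 3 lower. The part of heart muscle or nerve in the Fgf12 and Fgf14 differences was not tested.

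**Figure D2:**
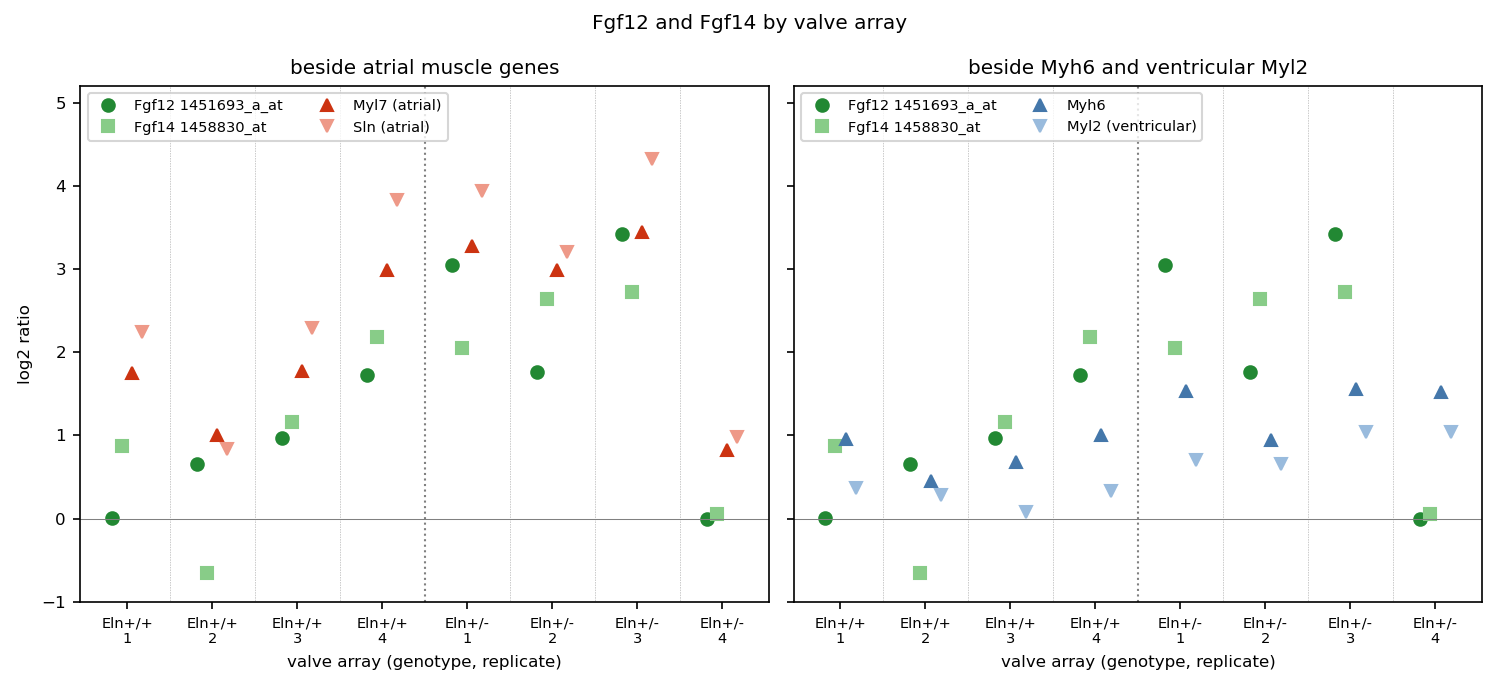
Log2 ratio (y axis) of Fgf12 and Fgf14 in each of the 8 valve arrays (x axis, genotype and replicate), beside the atrial muscle genes Myl7 and Sln (left) and beside Myh6 and the ventricular gene Myl2 (right); each symbol is 1 probe set on 1 array. In valve Eln+/- 4, Fgf12 and Fgf14 read -0.0084 and 0.055 with Myl7 at 0.82, while Myh6 reads 1.52.

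Fgf11 went the other way. For 1439959_at the aorta values were -0.037, 1.22, 0.63 and 0.28 in Eln+/+ and 0.64, 0.88, 0.12 and 0.90 in Eln+/-. The valve values were -0.06, -0.59, -0.31 and -0.12 in Eln+/+ and -0.60, 0.028, -0.029 and -0.31 in Eln+/-. Within each genotype no valve array reached the lowest aorta array. The averaged difference was -0.83 ± 0.18 (SE; limma adjusted p = 0.0082), and it held in all 16 fits without 1 array. Its other probe set, 1421793_at, differed by 0.076 ± 0.096 (SE) and did not pass. Adipocyte markers, lower in the valve in 8 of 8 genes, ranged from -0.69 to 2.84 over the aorta and from -0.96 to 0.36 over the valve arrays, and their part was not tested. The 2 Fgf13 probe sets did not pass, with 0.54 ± 0.24 (SE) and -0.10 ± 0.20 (SE).

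For the receptors the counts lay near those of all probe sets. Of 15 probe sets from 5 genes, 10 were lower in the valve, at a median difference of -0.15, beside 57.9% of all probe sets lower at a median of -0.038, and 1 passed, or 6.67% against 8.04% of all. That was Fgfrl1 1451912_a_at. This receptor binds FGFs but lacks the kinase domain. It read 0.24, 0.022, 0.46 and 0.34 in aorta Eln+/+ and 0.39, -0.19, 0.16 and -0.019 in aorta Eln+/-. In the valve it read -0.31, -0.48, 0.17 and -0.28 in Eln+/+ and -0.46, 0.019, -0.42 and -0.62 in Eln+/-, with both tissues overlapping in each genotype. The averaged difference was -0.47 ± 0.13 (SE; limma adjusted p = 0.0302), and it was lost in 11 of 16 fits without 1 array. The other Fgfrl1 probe set was lower by a similar amount, -0.42 ± 0.15 (SE), without passing.

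The kinase receptors did not pass in any comparison on the values as deposited. Fgfr3, the receptor best known for restraining cartilage growth, came closest with 1421841_at, at 0.49 ± 0.15 (SE) and an adjusted p of 0.0572 in limma. It passed with array medians set to 0, at an adjusted p of 0.0477, and after quantile normalisation, at 0.0298. Its values ran from -0.71 to 0.073 in aorta and from -0.52 to 0.58 in valve, where Eln+/- 3 was the low one. In Eln+/+ its tissues did not overlap. Its other probe set differed by 0.14 ± 0.14 (SE). Fgfr1, the main receptor of mesenchymal cells, differed by -0.32 ± 0.13 (SE), -0.16 ± 0.13 (SE) and -0.17 ± 0.12 (SE), and Fgfr2 by -0.26 ± 0.23 (SE), -0.18 ± 0.20 (SE) and -0.15 ± 0.15 (SE). Valve Eln+/- 3 was low for Fgfr1 and Fgfr2 too, at -0.73 and -0.88 for 2 probe sets of Fgfr1 and -1.58 and -1.14 for 2 of Fgfr2, but not for the third probe set of either gene, at 0.0012 for Fgfr1 1436551_at and 0.025 for Fgfr2 1443211_at. Without the 2 aorta arrays that carry thymocyte transcripts, Fgfr1 1424050_s_at passed at -0.46 with an adjusted p of 0.0354. Valve Eln+/- 3 also had the lowest smooth muscle list level, -1.54, and the part of that in the receptor values was not tested. Of the 5 Fgfr4 probe sets, 1427776_a_at, singled out after its values were seen, read 4.13 in valve Eln+/- 4 and between -0.50 and 0.76 elsewhere, while the other 4 spanned -0.59 to 0.72.

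Transcripts of the feedback inhibitors were mostly higher in the valve. Of 23 probe sets from 8 genes, 20 had a positive averaged difference, against 42.1% of all probe sets. Of the 23, 14 had an unadjusted p under 0.05, against 20.7% of all, and 3 passed, or 13% against 8.04%. The median difference was 0.36, against -0.038 over all. The count of positive differences was 20 with array medians set to 0, 19 after quantile normalisation and 21 without the 2 aorta arrays that carry heart muscle transcripts. Heart muscle and macrophage markers were higher in the valve too, in 20 of 20 and 10 of 10 genes. So were lymphatic endothelium markers in 6 of 6 genes, endothelium markers in 11 of 12 and valve and cartilage-type markers in 10 of 12. The part of these cell types in the feedback gene differences was not tested. Across feedback and ETS genes together, 17 of 28 probe sets were higher in the valve in both genotypes, or 60.7% against 24% of all probe sets. This too is a count by probe set and not by gene.

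Spry2, a Sprouty protein that blocks RAS activation below the receptor, separated the tissues fully with 1436584_at. Its aorta values were -0.67, -0.38, -0.099 and -0.047 in Eln+/+ and -0.40, -0.60, -0.0002 and -0.61 in Eln+/-. Its valve values were 0.23, 0.0002, 0.11 and 1.01 in Eln+/+ and 0.30, 0.60, 0.63 and 0.27 in Eln+/-. All 8 valve arrays lay above all 8 aorta arrays, although aorta Eln+/- 3 and valve Eln+/+ 2 nearly touched. A full separation of 8 from 8 was seen in 2 of the 84 probe sets and in 1.58% of all. The difference was 0.74 ± 0.15 (SE; limma adjusted p = 0.00688), or 1.68-fold, and it passed in all 16 fits without 1 array. The other Spry2 probe set, 1421656_at, differed by 0.49 ± 0.22 (SE) and did not pass, and it has the higher SD, so the call is lost (adjusted p = 0.2) where each gene is tested by its most variable probe set.

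The other probe set with full separation was 1460116_s_at of Spred1, which brings the RAS inhibitor neurofibromin to the membrane. It read -0.62, -0.01, -0.26 and -0.89 in aorta Eln+/+ and -0.35, -0.32, -0.36 and -0.25 in aorta Eln+/-. In the valve it read 0.068, 0.095, 0.39 and 0.01 in Eln+/+ and 0.89, 0.28, 0.031 and 0.32 in Eln+/-. The gap between the tissues was small, from aorta Eln+/+ 2 to valve Eln+/+ 4, against a mean difference of 0.64 ± 0.14 (SE; limma adjusted p = 0.00866). The other 7 Spred1 probe sets all had positive averaged differences, from 0.12 ± 0.17 (SE) to 0.62 ± 0.24 (SE), and 0 passed. With only the most variable one, 1452911_at, Spred1 has an adjusted p of 0.138 in limma.

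Spry4 passed narrowly with 1 of 4 probe sets, 1445669_at, at 0.51 ± 0.15 (SE; limma adjusted p = 0.048), and lost the call in 12 of 16 fits without 1 array. Its aorta values ran from -0.60 to 0.078 and its valve values from -0.27 to 0.72, with overlap. The other 3 Spry4 probe sets were also higher in the valve, by 0.27 ± 0.14 (SE), 0.65 ± 0.29 (SE) and 0.51 ± 0.16 (SE). Spry1 differed by 0.49 ± 0.19 (SE), Spry3 by 0.013 ± 0.14 (SE) and Spred3 by -0.06 ± 0.13 (SE), none passing. Of 5 Spred2 probe sets none passed, with differences from -0.12 ± 0.16 (SE) to 0.36 ± 0.15 (SE). Dusp6, the phosphatase that acts on ERK, differed by 0.37 ± 0.16 (SE) at an adjusted p of 0.194 in limma.

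Etv5, a PEA3-group ETS factor induced by FGF signalling, passed with 2 of 3 probe sets. For 1450082_s_at the aorta values were -0.31, -0.84, 0.084 and -0.40 in Eln+/+ and -0.72, -0.70, -0.39 and -1.19 in Eln+/-. The valve values were 0.10, 0.47, 0.037 and 0.21 in Eln+/+ and 0.57, -0.038, 0.47 and 0.44 in Eln+/-. In Eln+/- every valve array lay above every aorta array, and in Eln+/+ only aorta array 3 reached the valve range. The difference was 0.84 ± 0.15 (SE; limma adjusted p = 0.00212) on average and 1.11 ± 0.21 (SE; limma adjusted p = 0.00535) in Eln+/-. Both calls stood in all 16 fits without 1 array, and the call in Eln+/- was lost without both arrays that carry thymocyte transcripts (adjusted p = 0.0547). Probe set 1428142_at differed by 0.98 ± 0.27 (SE; limma adjusted p = 0.0319), with aorta Eln+/+ 1 far below the rest at -2.01, and lost the call in 8 of those fits. The third probe set, 1420998_at, differed by 0.22 ± 0.12 (SE) and did not pass. Etv4, its close relative, differed by -0.11 ± 0.17 (SE) and -0.063 ± 0.099 (SE) and did not pass.

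**Figure D3:**
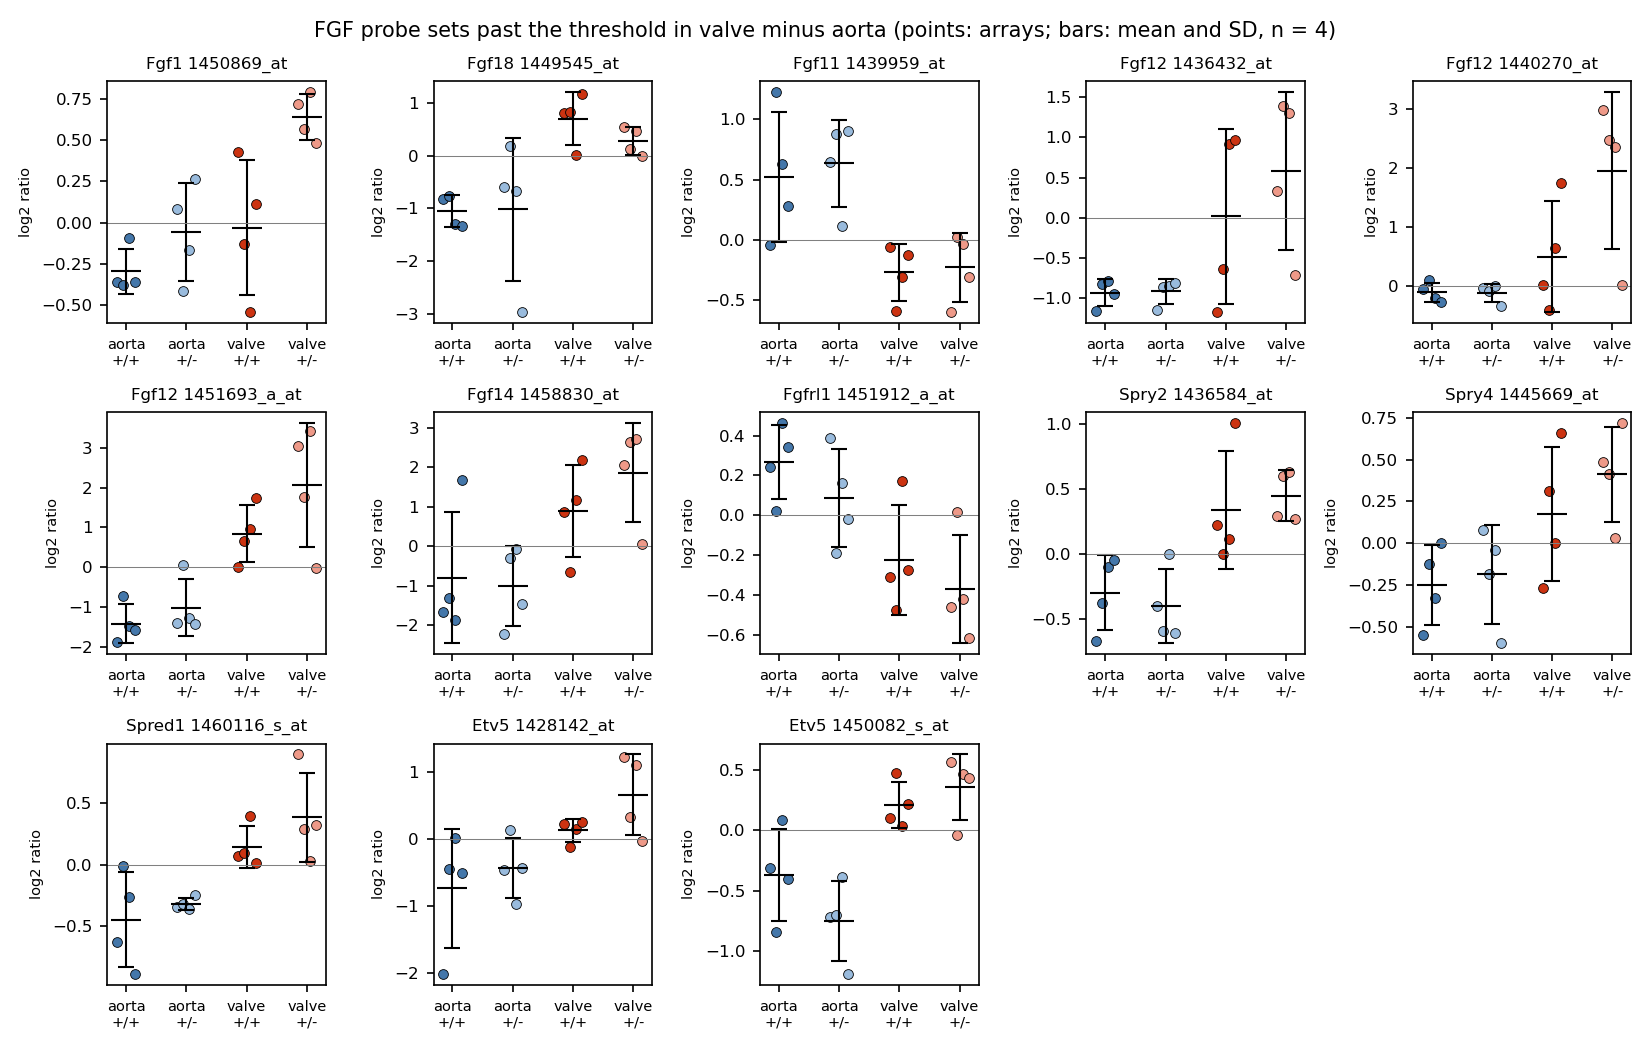
Log2 ratio (y axis) in the 4 groups (x axis) for the 13 FGF probe sets that passed between valve and aorta with genotypes averaged; points are arrays, the horizontal bar is the mean and the whiskers are the SD (n = 4). Spry2 1436584_at and Spred1 1460116_s_at separate all valve from all aorta arrays, while Fgf12 and Fgf14 spread widely within the valve.

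Other genes of the pathway, in lists written down with results of these data known, passed in both directions. Of 22 co-receptors and extracellular partners 21 were measured, with 49 probe sets. Of these, 3 passed as higher and 5 as lower in the valve, or 16.3% against 8.04% of all probe sets (4.4% higher and 3.64% lower). The syndecan Sdc3 was higher by 1.23 ± 0.11 (SE) for 1450027_at, at an adjusted p of 9.12e-06 in limma, and by 0.36 ± 0.092 (SE) for 1420853_at. In its first probe set it passed in each genotype alone. The glypican Gpc1 was higher by 1.80 ± 0.28 (SE). The sulfatase Sulf1, which trims heparan sulfate, was lower with 3 probe sets, at -0.73 ± 0.18 (SE), -0.61 ± 0.11 (SE) and -0.80 ± 0.20 (SE). The glypican Gpc3 and the heparan sulfate polymerase Ext1 were lower, at -0.74 ± 0.21 (SE) and -0.86 ± 0.19 (SE).

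Of 23 genes of the RAS and ERK relay 17 were measured, with 52 probe sets, and 0 passed with genotypes averaged, with 15 at an unadjusted p under 0.05 against 20.7% of all probe sets. In Eln+/- alone 2 of the 52 passed, or 3.85% against 5.81% of all probe sets. They were 1 probe set each of the adaptor Shc1 and the kinase Braf, lower in the valve at -0.54 ± 0.15 (SE) and -0.77 ± 0.17 (SE). Among 13 other ERK-induced genes, with 20 probe sets, 11 probe sets were higher and 9 lower in the valve, at a median difference of 0.089. Of the 20, 5 passed as higher and 0 as lower, or 25% against that 8.04%. The 5 come from 2 of the 13 genes. They belong to cyclin Ccnd1, higher by 0.65 ± 0.12 (SE), 1.34 ± 0.20 (SE) and 0.94 ± 0.15 (SE), and to the early response factor Egr2, higher by 1.16 ± 0.24 (SE) and 1.33 ± 0.29 (SE).

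Loss of 1 elastin allele gave no FGF call. In aorta 0 of 84 probe sets passed in limma, and 8 had an unadjusted p under 0.05 against 5.51% of all probe sets. The lowest adjusted p was 0.867, for Fgf21. In valve 0 of 84 passed and 8 had an unadjusted p under 0.05 against 8.6% of all, with a lowest adjusted p of 0.42, for Fgf1. On the whole array 0 probe sets passed in either tissue (0%). The direction of the genotype difference agreed between the tissues in 39 of 84 probe sets, against 47.7% of all.

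In aorta the Eln+/- and Eln+/+ arrays did not overlap in 3 of 84 probe sets, against 2.84% of all, with 1 higher in Eln+/- (1.39% of all) and 2 lower (1.45%). They were Fgf21, 1 probe set of Fgf7 and 1 of Spred2 (1441415_at). Fgf21 read 0.19, 0.27, 0.22 and 0.17 in Eln+/+ and -0.22, -0.18, -0.44 and -0.0022 in Eln+/-. Every Eln+/- array was below every Eln+/+ array, and the difference was -0.42 ± 0.12 (SE), with a 95% interval of -0.67 to -0.17. Fgf7, the keratinocyte growth factor made by stromal cells, was higher in every Eln+/- array with 1438405_at. It read -0.19, -0.30, -0.35 and -0.23 in Eln+/+ and 0.048, 1.05, 0.078 and 0.082 in Eln+/-. Aorta Eln+/- 2, 1 of the arrays with thymocyte transcripts, stood far above the rest. Among aorta arrays it also had the lowest smooth muscle list level, -0.73. Its fibroblast, macrophage and mesothelium levels were the highest of the aorta, at 0.33, 0.94 and 0.95. The part of these in the Fgf7 values was not tested. Without that array the difference fell from 0.58 to 0.34 for this probe set and from 1.04 to 0.63 for 1422243_at.

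In valve the genotypes did not overlap in 7 of 84 probe sets, against 5.04% of all, 6 higher in Eln+/- (3% of all) and 1 lower (2.04%). All 3 probe sets of Fgf1 were among the 6, with 1 each of Fgf5, Fgf9 and Etv5, and the lower one was Spred1 1423160_at. For 1441042_at the values were -0.052, -1.07, -0.40 and 0.086 in Eln+/+ and 1.13, 1.16, 0.24 and 0.095 in Eln+/-. For 1423136_at they were 0.16, -0.23, -0.41 and 0.085 and 0.31, 0.51, 0.52 and 0.39, and those of 1450869_at are given above. In each probe set the lowest Eln+/- array lay above the highest Eln+/+ array, in 1441042_at only just. The differences were 0.67 ± 0.19 (SE) for 1450869_at, 1.02 ± 0.37 (SE) for 1441042_at and 0.53 ± 0.25 (SE) for 1423136_at, with adjusted p in limma of 0.42, 0.453 and 0.585. The 3 probe sets share their specimens and are not independent.

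Beside that, heart muscle markers were higher in Eln+/- valves in 20 of 20 genes. With the heart muscle mean as a covariate in the valve arrays, the Fgf1 differences were 0.26 ± 0.33 (SE) for 1450869_at and 0.72 ± 0.59 (SE) for 1441042_at, and with the mean of 3 atrial genes 0.62 and 0.80. Etv5 1420998_at, with -0.015, -0.15, 0.015 and -0.16 in Eln+/+ and 0.71, 0.16, 0.91 and 0.093 in Eln+/-, did not overlap either, at 0.54 ± 0.17 (SE). Its difference was 0.15 ± 0.32 (SE) with the heart muscle covariate and 0.43 ± 0.19 (SE) with the atrial covariate, which was added after seeing the data. Dusp6 differed by 0.55 ± 0.22 (SE), by 0.19 ± 0.28 (SE) with the heart muscle covariate and by 0.51 ± 0.19 (SE) with the atrial one. Fgf12 1440270_at differed by 1.46 ± 0.52 (SE) and 1451693_a_at by 1.21 ± 0.60 (SE). With the heart muscle covariate these became -0.068 ± 1.03 (SE) and -0.64 ± 1.01 (SE). With the atrial covariate they were 0.74 ± 0.20 (SE) and 0.51 ± 0.33 (SE). The heart muscle means themselves did not overlap between the genotypes, at 0.48 to 1.30 in Eln+/+ and 1.35 to 2.10 in Eln+/-, so the 2 cannot be told apart here.

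**Figure D4:**
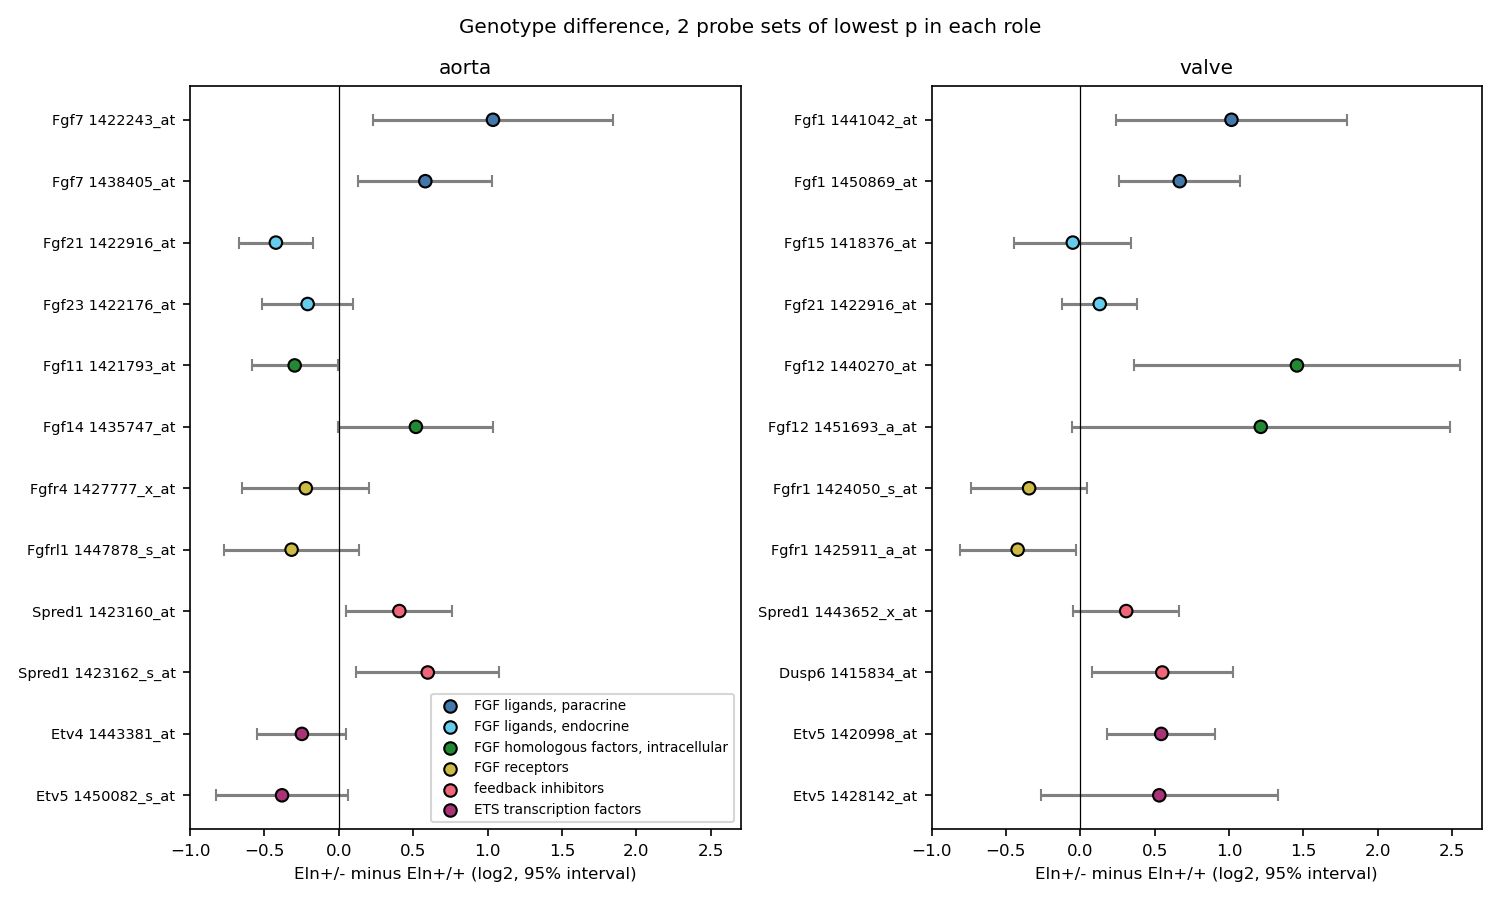
Eln+/- minus Eln+/+ (x axis, log2, point with its 95% interval) in aorta (left) and valve (right) for the 2 probe sets of lowest p in each role, coloured by role. No probe set passed after adjustment, and in the valve the intervals of both Fgf1 probe sets, Fgf12 1440270_at, Dusp6 and Etv5 1420998_at lie above 0 and that of Fgfr1 1425911_a_at below 0.

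Among the receptors in the valve, Fgfr1 had the lowest unadjusted p, at -0.42 ± 0.18 (SE) for 1425911_a_at, with a 95% interval of -0.81 to -0.032, and -0.34 ± 0.18 (SE) for 1424050_s_at. Fgfr4 1427776_a_at differed by more, 0.99 ± 0.72 (SE), but with valve Eln+/- 4 left out by -0.11. In aorta the widest of the 15 receptor differences was that of Fgfrl1 1447878_s_at, -0.32 ± 0.21 (SE). Among the inhibitors in aorta, Spred1 read higher in Eln+/- with 1423162_s_at, by 0.60 ± 0.23 (SE), and with 1423160_at, by 0.41 ± 0.17 (SE), without passing (adjusted p = 0.885 and 0.885).

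The tissue difference was then compared between the genotypes directly. In this interaction 0 of 84 probe sets passed in limma, 7 had an unadjusted p under 0.05 against 7.72% of all, and the lowest adjusted p was 0.619. That was Fgf21, at 0.55 ± 0.17 (SE), from a valve minus aorta difference of -0.32 ± 0.12 (SE) in Eln+/+ and 0.23 ± 0.12 (SE) in Eln+/-. Fgf1 1441042_at gave 1.25 ± 0.52 (SE) and Fgf12 1440270_at 1.47 ± 0.73 (SE). For Spred1, 1423160_at and 1423162_s_at gave -0.65 ± 0.24 (SE) and -0.76 ± 0.32 (SE), while the one that passed between tissues, 1460116_s_at, gave 0.11 ± 0.28 (SE), so probe sets of 1 gene disagreed in sign. The intervals leave room for sizeable genotype effects, such as -0.059 to 2.48 for Fgf12 1451693_a_at in the valve, so the absence of a call does not show that the genotypes are alike.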

How the data were processed

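RNA of 16 specimens (4 groups of 4) was measured on Affymetrix mouse whole-genome arrays. The deposited values are a linear ratio per probe set, and RMA is named in the submitters' processing notes. Read from the values, each probe set was divided, mostly by its median over the 16 arrays, so the signal level is lost and no filter on dim probe sets was possible. Here log2 of the deposited ratio was fitted with limma 3.58.1 in R 4.3.3, with 4 group means over all 16 arrays, 6 contrasts and Benjamini-Hochberg adjustment over 45037 probe sets, leaving out 64 control probe sets. Array medians of the ratio lay between 0.957 and 1.005. The fit was tested on simulated data, in which each deviation had its own random sign. Shifts shared by many probe sets of an array were therefore not simulated. A probe set was assigned to a gene only where the platform annotation names 1 gene.

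The members, lists and rules were chosen with earlier results of these data known. Described genes are those with an adjusted p under 0.05, all probe sets of their genes, and the 2 of lowest p in each role and comparison. Alternatives changed scaling, weights, arrays, blocks, covariates and probe set choice. The deviations of same-numbered arrays correlated between -0.0396 and 0.0516 for aorta and valve of 1 genotype and between -0.146 and 0.0711 for the genotypes of 1 tissue, so the number was not used as a pair.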

Additional observations from a re-analysis of the deposited data

Results flagged for a closer look

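In 36 of the FGF probe sets each group of 4 arrays was examined for 1 array far from the other 3, by the gap to its nearest neighbour relative to the whole range. Of 144 groups 17 had such an array. The cutoff marks about 1 in 20 groups of independent, normally distributed values. The probe sets here were chosen by their results and share arrays and genes, and 1 was added because it held the highest single value. The count of 17 therefore cannot be read against that rate. No cause was tested for any of them.

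Most lay in the aorta. In aorta Eln+/+, array 4 read -0.80 for Fgf1 1423136_at with the nearest other array at -0.56, 1.67 for Fgf14 1458830_at with the nearest at -1.31, and -0.068 for Fgf11 1421793_at with the nearest at 0.20. Array 3 of that group read -0.090 for Fgf1 1450869_at with the nearest at -0.36, and 0.35 for Fgfr1 1425911_a_at with the nearest at 0.0004. Array 2 read -0.59 for Fgf14 1435747_at with the nearest at -0.17.

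In aorta Eln+/-, array 2 stood apart in 5 probe sets. It read 0.052 for Fgf12 1451693_a_at with the nearest at -1.27, 1.63 for Fgf7 1422243_at with the nearest at 0.088, and 1.05 for Fgf7 1438405_at with the nearest at 0.082. It read -0.98 for Fgf1 1441042_at with the nearest at -0.079, and 0.70 for Dusp6 1415834_at with the nearest at -0.022. This array also carried thymocyte transcripts. Array 1 read -1.14 for Fgf12 1436432_at with the nearest at -0.86, and array 3 read -0.76 for Fgf15 1418376_at with the nearest at 0.090.

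In the valve, Eln+/+ 4 read 0.58 for Fgfr3 1421841_at with the nearest at 0.19, and 0.74 for Spred1 1423162_s_at with the nearest at 0.051. Valve Eln+/+ 1 read 0.59 for Fgf7 1438405_at with the nearest at 0.0017. Valve Eln+/- 4 read 4.13 for Fgfr4 1427776_a_at with the nearest at -0.20, in a probe set taken up after its values were seen.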

How the results depend on the processing

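Between valve and aorta on average, the count of FGF probe sets that passed was 13. It was 14 with array medians set to 0, with quantile normalisation, with array weights and with the sex-linked covariate. It was 12 without the 2 arrays with thymocyte transcripts, 9 of 37 genes with 1 mean per gene and 5 of 37 with the highest-SD probe set per gene. It was 7 without the 2 aorta arrays with heart muscle transcripts, and 7 to 13 without 1 array. Whole-array calls moved too, from 1981 higher and 1639 lower. They were 1811 and 1616 without the thymocyte arrays and 1538 and 1041 without the heart muscle arrays. Of the first 13, all 13 still passed with array medians set to 0, quantile normalisation and the sex-linked covariate. Of these 13, 12 still passed with array weights, 9 without the thymocyte arrays, 7 without the heart muscle arrays and 7 to 11 without 1 array. The receptor Fgfr3 1421841_at was gained with array medians set to 0 (0.51, adjusted p = 0.0477) and quantile normalisation (0.52, adjusted p = 0.0298). Fgfr1 1424050_s_at (-0.46, adjusted p = 0.0354) and Fgfrl1 1447878_s_at (-0.55, adjusted p = 0.0321) were gained without the thymocyte arrays. For Eln+/-, where 7 passed, the counts, in the order of the averaged ones above, were 6, 5, 7, 5, 1, 3, 2, 4 and 2 to 6, and 4 with only its 8 arrays. For Eln+/+, where 0 passed, quantile normalisation and the fit of 8 arrays gave 2 each (Fgf18 and Fgf12 1451693_a_at), leaving out the thymocyte arrays gave 1, leaving out 1 array gave 0 to 1, and every other alternative gave 0. Both genotype comparisons and the interaction gave 0 under every alternative run.

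With a replicate block by replicate number, 10 passed on average, 3 in Eln+/- and 0 in Eln+/+. With the replicate block of genotype and number these were 10, 5 and 0. The numbers are not known to pair specimens, and in Eln+/+ numbers 2 and 4 join an aorta and a valve array of unlike sex-linked transcripts. The same-numbered array correlated best in 2 of 8 pairs of aorta and valve and 1 of 8 pairs of the genotypes.

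Of 1971 values of single probe sets under an alternative, 1777 kept their direction and side of the threshold, 167 lost a call, 7 gained one and 20 turned in sign, each of the 20 in a difference that had not passed. With the highest-SD probe set per gene, the Fgf1 value compared with 1423136_at in Eln+/+ was -0.33. In the aorta genotype comparison that setting gave 0.11 for Fgf11, -0.22 for Fgf14, 0.24 for Etv4 and 0.30 for Etv5, and in the interaction -0.068 for Fgf11 and 0.38 for Spred1, against both 1423160_at and 1423162_s_at. Another probe set stands for the gene there. The mean per gene gave 0.00058 for Etv5 in aorta, the sex-linked covariate 0.0022 for Fgfr4 1427777_x_at in aorta, and leaving out the thymocyte arrays 0.014 for Fgf21 between tissues. In the valve genotype comparison the heart muscle covariate gave 0.27 for Fgf15, -0.068 and -0.64 for Fgf12 1440270_at and 1451693_a_at, 0.14 and 0.019 for Fgfr1 1424050_s_at and 1425911_a_at, and -0.16 for Etv5 1428142_at. The atrial gene covariate gave 0.029 for Fgf15, whose value ran from -0.13 to 0.069 without 1 array. The cause was not tested. Without a signal level, calls on dim probe sets cannot be told from those on bright ones.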
